A study of Mus musculus with 30 samples.

Results

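Liver maturation between birth and weaning was followed in female CD-1 mice that had been exposed to cadmium in the womb. Of the 30 libraries of the series, 7 were exposed females of the 2 younger ages: 4 at postnatal day (PND) 1 and 3 at PND21. They were chosen by the exposure, sex and age in the labels, with all genes kept, and were set beside 7 control females of the same ages, again 4 and 3. The exposure was cadmium chloride (CdCl2) at 500 ppb, and the title of the series places it in gestation. Controls carried no other label, and all 14 animals were of the outbred CD-1 stock with no transgene or deletion. The labels do not tie animals to litters, so p-values measure the spread between these animals. Sample tags share a leading number between a PND1 and a PND21 animal in 3 cases, 2 of them exposed, and the labels do not say what the number means.

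The liver of a newborn mouse is still a blood-forming organ, and its hepatocytes secrete fetal proteins such as alpha-fetoprotein. Up to weaning the blood-forming cells leave, hepatocytes stop dividing, fetal genes are silenced, and the enzymes of drug, bile acid, amino acid and fat metabolism are switched on as the diet moves from milk to solid food. Growth hormone begins to act on the liver in the same weeks, through the transcription factor STAT5.

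Each library held between 22027514 and 29633727 reads over the 14259 genes listed for both ages. Values are normalised read counts, that is, reads divided by the deposited size factor of the library, and changes are on the log2(normalised count + 1) scale, PND21 over PND1. The difference of maturation is the exposed change minus the control change. A gene was called at an adjusted p under 0.05 in limma, over all genes tested. Hepatocyte genes were abundant in each library: Alb, the albumin gene, was at 592405 normalised counts in the lowest of the 14. Mitochondrial genes took 8.98 to 18.8% of the reads in PND1 exposed and 13.9 to 23.4% in PND21 exposed libraries, against 4.88 to 17.5% and 12.1 to 18.3% in the controls, and their part in the results was not tested.

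Age changed much of the liver transcriptome in the exposed animals, and 5786 of the 5791 genes called in both arms moved the same way in exposed and control livers. Between PND1 and PND21, 6681 genes were called in the exposed animals, 46.9% of those tested, of which 3260 (22.9%) were higher and 3421 (24% of genes tested) were lower at weaning. In the controls 7985 genes were called (56%), 3944 higher and 4041 lower. The other 5 genes moved in opposite directions. A further 890 genes were called in the exposed arm alone and 2194 in the control arm alone, a split at a threshold that does not by itself test a difference. In the exposed libraries 7197 genes (50.5%) had no overlap between the ages. Scaled by total reads in place of the deposited factors, 1825 genes were higher and 5381 lower in the exposed arm, with the median of all genes moved to -0.33, so the direction of small changes is relative to the deposited scaling.

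By value, the change was more often the smaller one in the exposed arm. Of 9184 genes called in the mean of the arms (64.4% of genes tested), 6196 changed less in exposed than in control livers, a share of 67.5%. The share was 66.5% among the genes that rose and 68.4% among those that fell. The median size of the change over these genes was 0.85 in exposed and 1.02 in control livers. The difference itself was called in only 2 genes (0.014% of those tested), both less reduced at weaning in exposed livers. At an unadjusted p under 0.05 there were 1294 genes (9.07%). Among the 1005 of them that were also called in the mean of the arms, 820 changed less and 185 changed more in exposed animals.

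**Figure D1:**
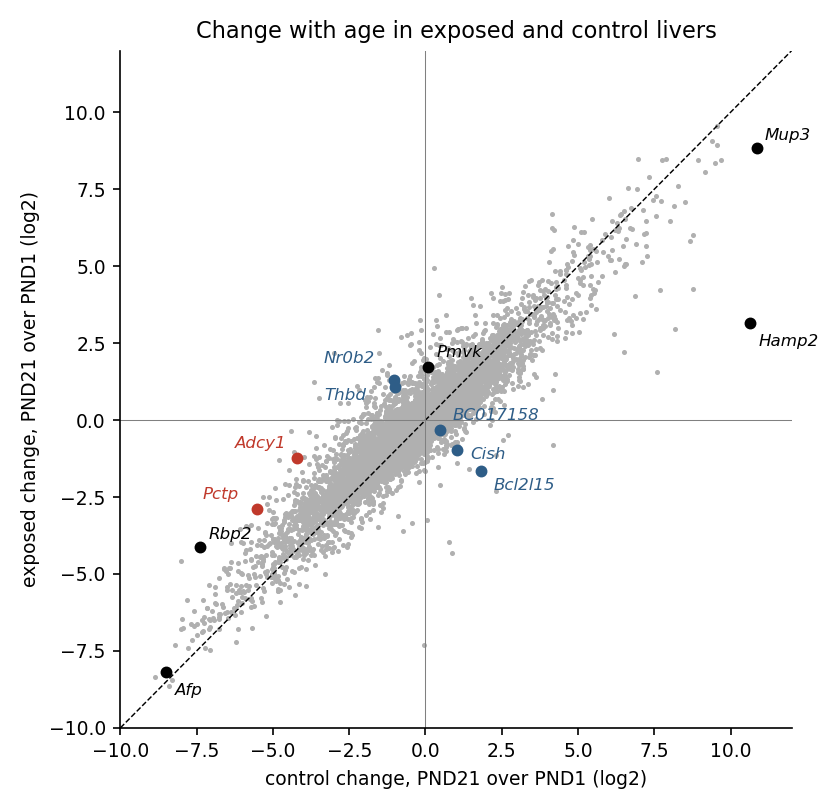
Change from PND1 to PND21 (log2) of each gene in control (horizontal) and exposed (vertical) livers, with equal change on the dashed line. Pctp and Adcy1, in red, are the 2 genes whose difference was called, the 5 genes in blue were called in opposite directions, and black marks other genes described in the text. Of 5791 genes called in both arms, 5786 changed in the same direction.

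Each library was also placed on the axis that leads from the mean newborn control (0%) to the mean weanling control (100%), over the 7985 genes called in controls, with a control library set against the means of the other controls. The PND1 exposed libraries lay at -3.40, 0.0094, 3.04 and 0.17% (replicates 1 to 4), and the PND1 controls at -0.92 to 4.49%. Replicate 1 thus lay below the control range and the others within it. The PND21 exposed libraries lay at 90.3, 86.5 and 72.3% (replicates 1 to 3), and the PND21 controls at 97.5, 96.9 and 98.1%. All 3 exposed weanlings were therefore below all 3 control weanlings, with means of 83.0 ± 9.48 and 97.5 ± 0.59% (SD, n = 3 each). A two-sided exact permutation test gave p = 0.1 at PND21, the smallest that 3 against 3 libraries allow, and p = 0.514 at PND1. The genes were chosen on the control change. Over all 14259 genes, without that choice, the means were 82.5% and 95.4%, also without overlap. Both ends of the axis still came from the control libraries. The permutation test shuffled finished positions without drawing the axis anew, so its p-values only describe these values.

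**Figure D2:**
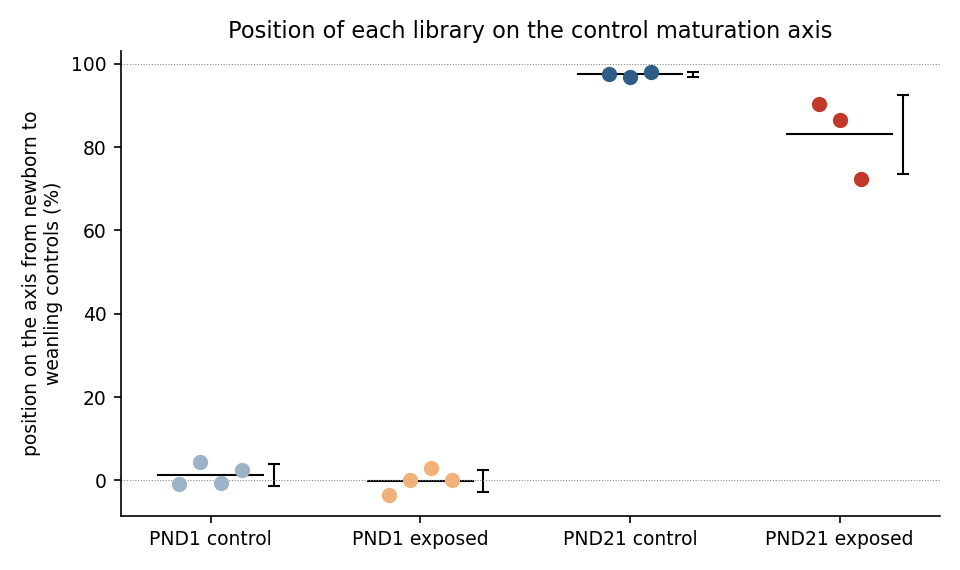
Position of each library on the axis from the newborn control mean (0%) to the weanling control mean (100%). Points are libraries, horizontal bars are group means and the error bars give the SD (n = 4 at PND1, n = 3 at PND21). The 3 PND21 exposed libraries sit between 72.3 and 90.3%, below the PND21 controls at 96.9 to 98.1%.

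PND21 exposed replicate 3 stood apart from its group. It lay lowest on the axis and had the highest mitochondrial share, 23.4%. Several genes that were high in the other exposed weanlings were low in it. Mfsd2a, a transporter of lysophospholipids, was at 4613 and 4484 normalised counts in replicates 1 and 2 and at 95.7 in replicate 3. Thrsp, a promoter of fatty acid synthesis, was at 30829, 32135 and 2811. Cebpb, a liver transcription factor, was at 8699, 5715 and 1748. All 3 of these genes were called as higher at weaning despite that library, although Mfsd2a was not with limma voom (adjusted p = 0.058). Without it, the share of genes with a smaller change in exposed livers was 61.8%, the mean position of exposed weanlings was 88.4%, and 6 genes were called in the difference, 2 higher and 4 lower.

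Genes of the fetal liver fell in the exposed livers, with a median close to that of the controls. Of 24 measured fetal and neonatal liver genes, 22 fell and 0 rose, with a median change of -3.02 against -2.98 in controls and 0.003 over all genes tested. Gene by gene, the difference of maturation was above 0 in 16 of 24 (median 0.46), and 0 were called. At an unadjusted p under 0.05, 4 were higher and 0 lower, beside 9.07% over all genes tested. Without exposed replicate 3 the median difference was 0.12, with 15 genes above 0. At PND21 19 of the 24 were higher in exposed than in control livers (median 0.47). Afp, alpha-fetoprotein, the albumin of the fetus, was at 252500, 259880, 164330 and 339620 normalised counts in newborn exposed livers and at 571, 473 and 2155 in weanlings, a change of -8.20 ± 0.44 (SE; adjusted p = 6.0e-09). In control weanlings it was at 785, 712 and 547, so that exposed replicate 3 was the only weanling above 1000. Igf2, the fetal growth factor, fell by 7.32 ± 0.42 and ended at 562, 545 and 2525 in exposed and at 403 to 535 in control weanlings. H19, the maternally expressed RNA next to it, fell by 6.21 ± 0.49 and ended at 1285, 4434 and 11235 in exposed and at 1405 to 1951 in control weanlings. For all 3 genes exposed replicate 3 was the highest of the 6 weanling libraries, and the difference of maturation of Afp (0.29), Igf2 (0.90) and H19 (1.38) was not called (adjusted p = 0.9, 0.67 and 0.57).

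Imprinted growth genes fell too. Of 22 measured, 16 fell and 2 rose (median -2.78, controls -2.71). Grb10, an inhibitor of insulin and growth factor receptors, fell by 3.95 ± 0.19, and Mest by 3.31 ± 0.25. Outside the list, Zim1, an imprinted zinc finger gene, fell by 6.80 ± 0.52, from 874 to 1180 normalised counts in newborns to 3.16, 4.67 and 34.7 in weanlings. Among fetal isoforms of metabolic enzymes, Pkm, the pyruvate kinase of proliferating tissue, fell by 1.88 ± 0.17 in exposed and by 2.94 in control livers. It was at 442, 416 and 694 normalised counts in exposed and 284, 264 and 284 in control weanlings, without overlap. Scd2, the desaturase isoform of the developing liver, was at 241, 215 and 341 against 111, 154 and 141. The differences of Pkm (1.07 ± 0.24) and Scd2 (1.47 ± 0.28) were among the 24 of lowest p and were not called (adjusted p = 0.27 and 0.20).

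Genes of blood formation fell in the exposed livers. All 19 measured neutrophil granule genes, 32 of 33 erythroid, 18 of 19 megakaryocyte and platelet, and all 16 B cell genes fell, and none rose. In bulk tissue, fewer cells of a type and less RNA per cell cannot be told apart. The median change was -5.85 for neutrophil, -5.53 for erythroid, -3.82 for megakaryocyte and -3.07 for B cell genes, and in controls -6.75, -5.58, -4.38 and -3.998. S100a8, a subunit of the neutrophil protein calprotectin, was at 11324 to 12749 normalised counts in newborn exposed livers and at 126, 98.2 and 205 in weanlings, a change of -6.44 ± 0.22. Camp and Ltf, an antimicrobial peptide and lactoferrin of the granules, fell by 6.88 ± 0.36 and 7.14 ± 0.29. The erythroid genes Ank1 (ankyrin of the red cell membrane), Epor (the erythropoietin receptor) and Hbb-bs (adult beta globin) changed by -6.39 ± 0.32, -3.88 ± 0.21 and -3.82 ± 0.40. Itga2b, the platelet integrin, fell by 3.12 ± 0.22 and Pf4, a platelet chemokine, by 4.29 ± 0.29.

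At PND1 12 of 16 B cell genes were lower in exposed than in control livers (median -0.24), and at PND21 15 were higher (median 0.71). The difference of maturation was above 0 in 16 of 16 genes, with a median of 1.01 beside -0.002 over all genes tested. An unadjusted p under 0.05 was reached by 6, beside 9.07% over all genes tested, and 0 were called. Cd79b, part of the B cell receptor complex, was at 240, 555, 388 and 403 normalised counts in newborn exposed livers and fell to 37.9, 39.3 and 64.6. In controls it went from 441 to 498 down to 10.2, 26.6 and 30.5, so the weanling groups did not overlap (difference 1.43 ± 0.48, adjusted p = 0.42). Fcrla, a B cell Fc receptor-like protein, was at 23.2, 31.8 and 28.7 in exposed and 11.7, 10.6 and 16.6 in control weanlings. Pax5, the master factor of the B lineage, fell by 3.45 ± 0.31, with a control change of -4.02. Without exposed replicate 3 all 16 differences stayed above 0 (median 0.91). The same was not so for megakaryocyte genes, where 19 of 19 differences were above 0 with that library (median 0.37) and 9 of 19 without it (median -0.05). Of 33 erythroid genes 32 were higher in exposed than in control livers at PND1 (median 0.37) and 20 at PND21 (median 0.25). Their median difference of maturation was -0.05, with a sign that turns under scaling by total reads, and -0.20 without exposed replicate 3, with 21 of 33 below 0. Alas2, the erythroid enzyme that starts heme synthesis, was at 871, 622 and 959 in exposed and 1258, 1542 and 2097 in control weanlings (difference -1.39 ± 0.35, adjusted p = 0.28).

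Cell cycle genes fell as well. Of 50 cell cycle genes 48 fell and 0 rose, with a median of -2.71 in exposed and -3.48 in control livers. E2f2, an E2F factor active in erythroblasts, changed by -5.30 ± 0.33, Ncapd2 of the condensin complex by -2.94 ± 0.26, and Nusap1 of the mitotic spindle by -4.09 ± 0.36. Nusap1 was at 46.4, 121 and 184 normalised counts in exposed weanlings and at 46.7, 47.8 and 77.6 in controls, which overlapped. The difference of maturation was above 0 in 42 of the 50 genes (median 0.56; 0.30 and 36 genes without exposed replicate 3), and 0 were called. At an unadjusted p under 0.05, 1 was higher and 1 lower, beside 9.07% over all genes tested. Without exposed replicate 3, 0 were higher and 0 lower at that p. Genes of cytosolic ribosomal proteins fell in 47 of 76 and rose in 0 (median -0.59, controls -0.82), with Rps3 at -1.23 ± 0.21 and Rplp0 at -1.17 ± 0.19. Their difference of maturation was above 0 in 63 of the 76 (median 0.32), and 0 were called. An unadjusted p under 0.05 was reached by 10, all higher, beside 9.07% over all genes tested. Without exposed replicate 3 it was reached by 3 higher and 2 lower, beside 563 higher and 444 lower of the 14259 genes tested. In exposed livers 68 of the 76 were lower than in controls at PND1 (median -0.19) and 28 at PND21.

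Enzymes of foreign compound metabolism rose. Of 43 drug-metabolising cytochrome P450 genes 29 rose and 0 fell, with a median of 1.95 in exposed and 1.91 in control livers. Cyp2c39 was at 36.7, 20.1, 20.1 and 17.2 normalised counts in newborn exposed livers and at 4718, 6163 and 6069 in weanlings, a rise of 7.90 ± 0.28. Cyp2c29 rose by 8.47 ± 0.58, to 7101, 2604 and 7815. Reads of these near-identical Cyp2c genes may have been split between copies, and the same holds for Mug1 and Mug2 and for the Mup, Serpina1, Gstm and Hspa1 genes below. Among conjugation enzymes 28 of 37 rose and 2 fell (median 1.93, controls 1.61). Ugt2a3, a glucuronosyltransferase, rose by 4.39 ± 0.27, Gstk1, a mitochondrial and peroxisomal glutathione transferase, by 2.94 ± 0.21, and Gstm1 by 3.11 ± 0.23. Among the 12 highest changes of the arm, Ces3b, a carboxylesterase, rose by 8.36 ± 0.34 and Sdr9c7, a short-chain dehydrogenase, by 7.62 ± 0.38.

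Among regulators of hepatocyte identity and secreted proteins, most calls were rises. Of 23 hepatocyte identity factors 16 rose and 0 fell (median 0.84, controls 1.12). Nr1i3, the xenobiotic receptor CAR, rose by 1.70 ± 0.26. Zhx2, a repressor that helps silence Afp and H19 after birth, was at 109, 146, 123 and 152 in exposed newborns and 375, 428 and 260 in weanlings, a rise of 1.40 ± 0.25. Of 37 secreted plasma proteins 12 rose and 2 fell in exposed livers, and 19 rose and 3 fell in controls. Over all genes tested 22.9% rose and 24% fell in exposed livers, and 27.7% rose and 28.3% fell in controls. The exposed median of the plasma protein list, 0.32, turned below 0 under quantile normalisation and under scaling by total reads. Apoc3, an apolipoprotein that slows the clearance of triglyceride-rich particles, rose by 6.65 ± 0.29, the clotting factor gene F9 by 1.80 ± 0.20, and Mug1, a murinoglobulin protease inhibitor, by 8.48 ± 0.42. Mug2 rose by 8.44 ± 0.90. Alb was at 975550, 1694100 and 1523100 in exposed weanlings, a change of 0.84 ± 0.37 that was not called (adjusted p = 0.072). It was called with library quality weights (adjusted p = 0.0040), with the tag number as a random block (adjusted p = 0.020), with no intensity trend (adjusted p = 0.0498), and without PND21 exposed or PND21 control replicate 1 (adjusted p = 0.041 and 0.042).

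Most called genes of amino acid breakdown, bile acids and lipogenesis rose. Of 29 urea cycle and amino acid enzymes 26 rose and 0 fell (median 1.80, controls 1.56). The difference of maturation was above 0 in 24 of the 29 (median 0.35), and 0 were called. An unadjusted p under 0.05 was reached by 3, beside 9.07% over all genes tested. In exposed livers 28 of the 29 were lower than in controls at PND1 (median -0.46) and 20 at PND21 (median -0.23). Prodh, which starts proline breakdown, rose by 5.08 ± 0.33, and the tryptophan pathway enzymes Kmo and Haao by 2.58 ± 0.22 and 2.14 ± 0.18. Of 22 pericentral genes, those of hepatocytes around the central vein, 17 rose and 1 fell, among them the glutamate transporter gene Slc1a2 (5.84 ± 0.32) and Aldh1a1 (5.05 ± 0.16). Aldh1a1, a retinaldehyde dehydrogenase, reached 4025, 3655 and 4099 in exposed and 7385, 8420 and 8644 in control weanlings. It was lower in exposed livers at PND1 as well, so its difference of maturation was -0.30. Adh1, an alcohol and retinol dehydrogenase of the retinoid list, rose by 2.69 ± 0.20.

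Of 29 genes of bile acid synthesis and transport 19 rose and 4 fell (median 1.24 in both arms). Baat, which joins bile acids to taurine, rose by 2.96 ± 0.14, Cyp27a1, a sterol hydroxylase, by 3.84 ± 0.46, and Slco1a1, an organic anion importer, by 4.68 ± 0.39. Cyp7a1, the rate-limiting enzyme of bile acid synthesis, was at 2404, 6481 and 189 normalised counts in exposed weanlings and at 6337, 5023 and 7683 in controls. Its change of 1.96 ± 0.85 in exposed livers was not called (adjusted p = 0.078), and without exposed replicate 3 it was 3.42 (adjusted p = 5.1e-06). Of 24 lipogenesis genes 20 rose and 0 fell in each arm (median 1.53, controls 2.14). Gene by gene, the difference of maturation was below 0 in 14 and above 0 in 10, with a median of -0.17. That median turned above 0 under scaling by total reads (0.011) and without exposed replicate 3 (0.009). Scd1, the main desaturase of the adult liver, was at 100, 117, 160 and 186 in exposed newborns and 16159, 27436 and 38622 in weanlings (7.55 ± 0.32). Me1, malic enzyme, which supplies NADPH, rose by 1.79 ± 0.14. Nuclear-encoded genes of oxidative phosphorylation rose in 58 of 74 and fell in 0, with a median of 0.79 (controls 0.64). They included Uqcrb of complex III (1.54 ± 0.14) and Ndufa5 of complex I (1.29 ± 0.12). The difference of maturation was above 0 in 51 of the 74 (median 0.15), and 0 were called. An unadjusted p under 0.05 was reached by 14, beside 9.07% over all genes tested, and by 7 without exposed replicate 3. In exposed livers 66 of the 74 were lower than in controls at PND1 (median -0.28) and 45 at PND21 (median -0.09).

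**Figure D3:**
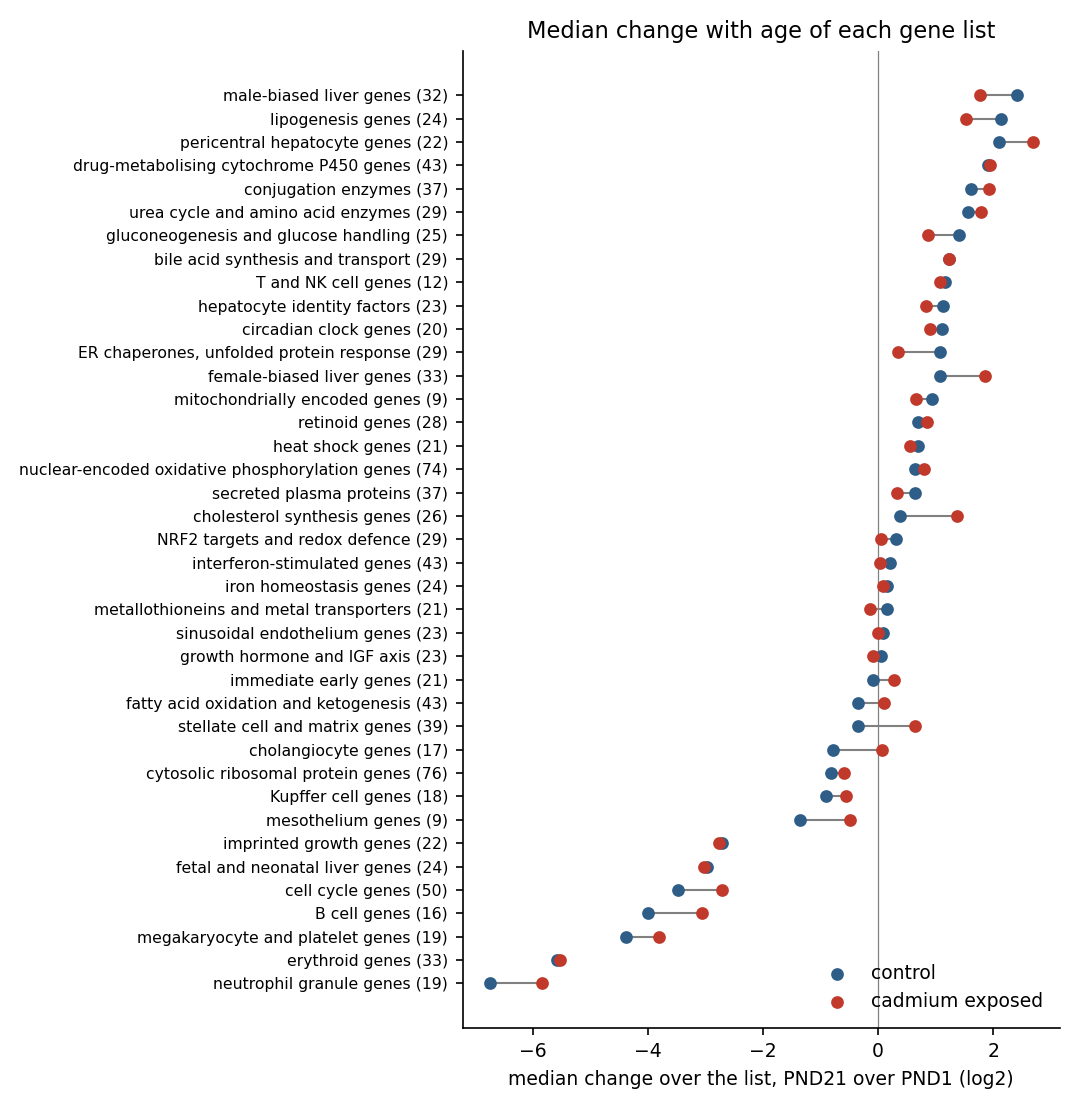
Median change from PND1 to PND21 (log2) of each gene list with at least 5 measured genes, in control (blue) and exposed (red) livers, sorted by the control median, with the number of measured genes in brackets. Neutrophil, erythroid, megakaryocyte, B cell, cell cycle, fetal and imprinted genes are at the bottom in both arms, with medians below -2.7. The red point of cholesterol synthesis (1.37) lies to the right of the blue one (0.38), and that of endoplasmic reticulum (ER) chaperones (0.34) to the left (1.07).

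The 2 genes whose maturation differed between the arms both fell less in the exposed livers. Pctp encodes phosphatidylcholine transfer protein, which carries the main membrane phospholipid between membranes, and lies on chromosome 11 at 89982665 to 90002894 (mm10, minus strand, protein-coding). It was at 1507, 2354, 2278 and 1664 normalised counts in exposed newborns and at 300.3, 210 and 264 in exposed weanlings. In controls it was at 1604, 2662, 2465 and 2302 in newborns and at 48.1, 61.1 and 36.0 in weanlings. The newborn groups overlapped, and each exposed weanling was above each control weanling. The change was -2.90 ± 0.22 in exposed and -5.52 in control livers, a difference of 2.62 ± 0.32 (adjusted p = 0.0092).

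Adcy1, an adenylyl cyclase that makes cyclic AMP in response to calcium and calmodulin, lies on chromosome 11 at 7063489 to 7178506 (plus strand). It was at 136, 141, 130 and 120 in exposed newborns, 42.2, 51.4 and 79.0 in exposed weanlings, 139, 129, 201 and 164 in control newborns, and 5.84, 10.6 and 6.92 in control weanlings. The weanling groups did not overlap. The change was -1.23 ± 0.27 against -4.20, a difference of 2.96 ± 0.39 (adjusted p = 0.011). The difference of both genes kept its sign under each alternative tried. Neither was called with limma voom (adjusted p = 0.23 and 0.24), with quantile normalisation (adjusted p = 0.061 and 0.12) or with the replicate number as a block (adjusted p = 0.55 and 0.78).

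Other genes of low p for the difference did not pass over all genes. Rbp2, a cellular retinol-binding protein, fell from 180, 165, 207 and 84.4 to 7.38, 5.61 and 10.8 in exposed livers. In controls it fell from 317, 387, 412 and 274 to 0, 1.33 and 2.77, so that exposed livers were the lower ones at birth and the higher ones at weaning, without overlap at either age (difference 3.25 ± 0.60, adjusted p = 0.20). Oxct1, which lets tissues burn ketone bodies and is silenced in the adult liver, fell by 0.66 ± 0.16 in exposed and by 1.72 in control livers. Bbc3, the p53 target PUMA, rose by 1.44 ± 0.23 in exposed livers, from 112, 120, 113 and 131 to 403, 244 and 348, with a control change of -0.14. The differences of Oxct1 (1.06) and Bbc3 (1.58) were not called (adjusted p = 0.22 for each).

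In 5 genes each arm passed its own test in opposite directions, and none of the 5 differences was called over all genes. Nr0b2 encodes SHP, a nuclear receptor without a DNA-binding domain that represses bile acid synthesis. It went from 668, 1221, 1375 and 757 to 4235, 1926 and 1667 in exposed livers, a rise of 1.31 ± 0.33, and from 852 to 1454 in newborns to 399.7, 524 and 589 in weanlings in controls, a fall of 1.02. The weanling groups did not overlap (difference 2.33 ± 0.46, adjusted p = 0.20). Cish, a feedback inhibitor that STAT5 induces, went from 554, 602, 780 and 425 to 384, 359 and 180 in exposed livers, a fall of 0.98 ± 0.31, and from 461 to 635 up to 1810, 1061 and 737 in controls, a rise of 1.05 (difference -2.03 ± 0.43, adjusted p = 0.25). Without exposed replicate 3 the exposed change of Cish was -0.63 (adjusted p = 0.091). Thbd, thrombomodulin of the vessel wall, rose by 1.06 ± 0.35 in exposed livers and fell by 1.003 in controls, a call lost without PND21 exposed replicate 3 (0.72, adjusted p = 0.11) and without PND1 exposed replicate 3 (0.82, adjusted p = 0.061). Bcl2l15, of the Bcl-2 family, fell by 1.67 ± 0.55 in exposed and rose by 1.81 in control livers, and BC017158 fell by 0.32 ± 0.12 and rose by 0.46. The BC017158 call was lost without PND21 exposed replicate 1 or 3 or PND1 exposed replicate 1 or 4 (adjusted p = 0.094, 0.076, 0.098 and 0.066). That of Bcl2l15 was lost without PND21 exposed replicate 2 or PND1 exposed replicate 4 (adjusted p = 0.12 and 0.055).

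**Figure D4:**
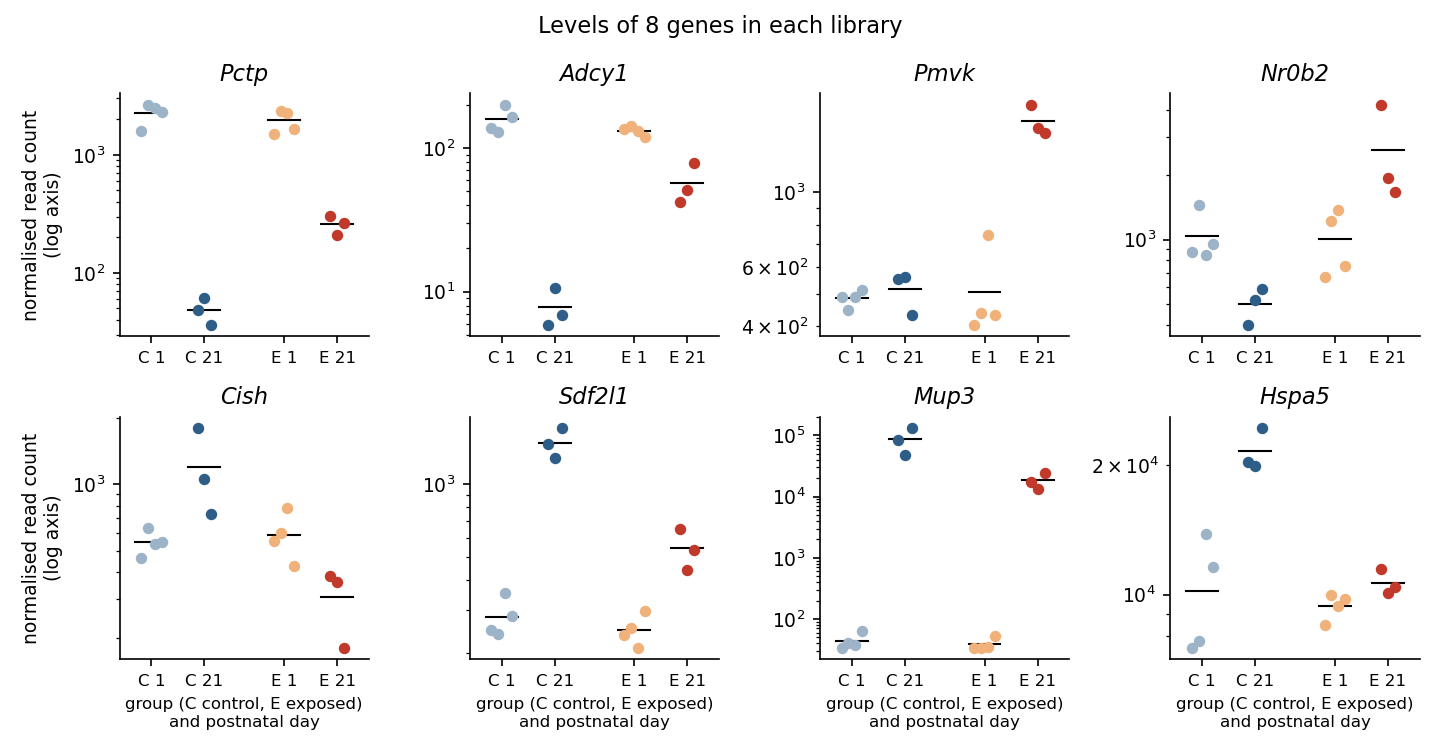
Normalised read counts on a log axis of 8 genes in each of the 14 libraries, by group (C control, E exposed) and postnatal day. Points are libraries and bars are means. For Pctp, Adcy1, Pmvk and Nr0b2 each exposed weanling is above each control weanling, and for Cish, Sdf2l1, Mup3 and Hspa5 each is below. The genes were chosen with these values known, so the separation is not separate support.

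Cholesterol synthesis genes changed more, by value, in exposed than in control livers. Of 26 genes 22 rose and 0 fell in exposed livers, while 8 rose and 2 fell in controls, with medians of 1.37 and 0.38. The difference of maturation was above 0 in 26 of 26 genes (median 0.73), and 0 were called. An unadjusted p under 0.05 was reached by 12, beside 9.07% over all genes tested. Without exposed replicate 3 the differences were again above 0 in 26 of 26 (median 0.88), 16 of them at an unadjusted p under 0.05. At PND1 24 of the 26 were lower in exposed than in control livers (median -0.31), and at PND21 23 were higher (median 0.46). Cells make cholesterol from acetyl-CoA through mevalonate, and the sterol-sensing factor SREBP2 switches the whole pathway on when sterol runs low.

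Along the pathway, Hmgcs1 makes the precursor of mevalonate. It was chosen for its role after its values were seen. Hmgcs1 went from 4570, 5844, 9406 and 4389 to 21123, 13049 and 30625 normalised counts in exposed livers (1.82 ± 0.41), with a control change of 0.44. Pmvk, phosphomevalonate kinase, on chromosome 3 at 89454541 to 89469013, was at 403, 438, 745 and 432 in exposed newborns and 1819, 1549 and 1498 in weanlings, a rise of 1.73 ± 0.19. In controls it stayed between 434 and 562 at both ages, with a change of 0.08, and the difference of 1.64 ± 0.27 had an adjusted p of 0.088. Fdft1, squalene synthase, the first step toward sterols alone, reached 4737, 3178 and 3650 in exposed and 1635, 2338 and 1924 in control weanlings (difference 1.28 ± 0.30, adjusted p = 0.28). The late steps Ebp, Sc5d and Dhcr7 rose by 2.01 ± 0.20, 2.43 ± 0.23 and 1.91 ± 0.19 in exposed livers and by 1.49, 1.45 and 1.37 in controls.

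Chaperones of the endoplasmic reticulum (ER) changed less, by value, in exposed livers. They fold secreted proteins and are induced together by the unfolded protein response. Of 29 measured genes 12 rose and 3 fell in exposed livers, and 18 rose and 4 fell in controls, with medians of 0.34 and 1.07. The difference was below 0 in 23 genes (median -0.41), and 0 were called. At an unadjusted p under 0.05, 9 were lower and 1 higher, beside 9.07% over all genes tested. At PND21 26 of the 29 were lower in exposed than in control livers (median -0.58), beside 22 at PND1 (median -0.13). Without exposed replicate 3 the difference was below 0 in 21 genes (median -0.48).

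Sdf2l1, a subunit of ER chaperone complexes on chromosome 16 at 17130138 to 17132383, was at 237, 254, 208 and 298 normalised counts in exposed newborns and 648, 440 and 534 in weanlings, a rise of 1.11 ± 0.18. Control weanlings were at 1462, 1283 and 1715, all above the exposed ones (control change 2.41, difference -1.30 ± 0.26, adjusted p = 0.20). Creld2, a disulfide isomerase of the ER, was at 1447, 838 and 688 in exposed and 4252, 1449 and 3510 in control weanlings (difference -1.87 ± 0.46, adjusted p = 0.28). Asns, the asparagine synthetase induced by the amino acid branch of the response, fell by 5.01 ± 0.36 in exposed and by 5.23 in control livers.

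The promoters of several of these genes hold the ER stress element, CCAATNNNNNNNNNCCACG, through which ATF6 and partner factors act. It was searched on both strands in the RefSeq windows from 250 bases before to 50 after each start site (GRCm38.p6). Windows matched 25 of the 29 genes, and 9 of the 25 (36%) held the element, against 20 of 10770 genes tested that had a window (0.186%) and 0.119% of all 32851 windows. The stretches around the element are shown for the 9 genes because their changes are then set beside those of the other listed genes. Capitals mark the element, and CGTGG at its left end means that it lies on the other strand.
Hspa5 (chr2:34771995-34772073, plus strand): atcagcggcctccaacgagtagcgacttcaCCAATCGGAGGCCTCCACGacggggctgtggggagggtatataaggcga
Hsp90b1 (chr10:86705503-86705686, minus strand, 2 elements): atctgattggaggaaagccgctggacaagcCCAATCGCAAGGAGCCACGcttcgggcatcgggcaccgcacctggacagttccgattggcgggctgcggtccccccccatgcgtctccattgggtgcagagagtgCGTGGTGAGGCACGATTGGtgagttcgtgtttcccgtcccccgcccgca
Creld2 (chr15:88819490-88819568, plus strand): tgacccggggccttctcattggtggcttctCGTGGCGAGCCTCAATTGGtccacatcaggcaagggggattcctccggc
Derl3 (chr10:75893212-75893290, plus strand): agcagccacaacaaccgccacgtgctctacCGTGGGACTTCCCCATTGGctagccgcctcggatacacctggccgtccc
Syvn1 (chr19:6046502-6046575, plus strand): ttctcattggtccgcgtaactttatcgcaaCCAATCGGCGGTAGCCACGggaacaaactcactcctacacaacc
Calr (chr8:84847045-84847123, minus strand): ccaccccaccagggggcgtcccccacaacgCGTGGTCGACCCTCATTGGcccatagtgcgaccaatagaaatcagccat
Dnajc3 (chr14:118937797-118937875, plus strand): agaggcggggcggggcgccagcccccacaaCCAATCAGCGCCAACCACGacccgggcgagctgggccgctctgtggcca
Pdia6 (chr12:17266461-17266539, plus strand): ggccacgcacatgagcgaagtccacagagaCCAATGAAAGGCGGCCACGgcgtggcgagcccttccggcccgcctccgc
Canx (chr11:50325770-50325848, minus strand): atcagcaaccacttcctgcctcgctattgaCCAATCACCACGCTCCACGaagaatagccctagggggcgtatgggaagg

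These 9 genes, chosen by the element after the values were seen, had a median change of 0.53 in exposed and 1.12 in control livers, with 8 of 9 differences below 0 (median -0.55). The 16 listed genes with a window and no element had medians of 0.23 and 0.74, with 13 of 16 differences below 0 (median -0.31), so that both kinds lay on the same side. The 11 unlisted genes with the element had medians of -0.41 and 0.22, with 7 differences below 0 (median -0.20), and over all genes 50.2% of differences were below 0. Hspa5, the chaperone BiP, was at 8490, 9967, 9406 and 9746 normalised counts in exposed newborns and 11446, 10091 and 10405 in weanlings, a change of 0.18 ± 0.20 that was not called. In controls it reached 20283, 19913 and 24391, above each exposed weanling (difference -0.94 ± 0.28, adjusted p = 0.35). Hsp90b1, the chaperone GRP94, rose by 0.97 ± 0.18 in exposed livers and Dnajc3, a BiP partner, by 0.94 ± 0.16. Under quantile normalisation Hsp90b1 was at 0.39 and not called (adjusted p = 0.095). Derl3 and Syvn1 serve the removal of misfolded proteins. Syvn1 changed by 0.87 ± 0.32 (adjusted p = 0.040) and Derl3 by 1.501 ± 0.59 (adjusted p = 0.0497), and neither was called without PND21 exposed replicate 1 (adjusted p = 0.20 and 0.22). The call of Syvn1 was lost without any 1 of the other exposed libraries but PND21 replicate 3, and that of Derl3 without 9 of the 14 libraries in all. Calr, calreticulin, changed by 0.53 ± 0.20 (adjusted p = 0.044), a call that was lost without PND21 exposed replicate 1 (adjusted p = 0.12) or 3 (adjusted p = 0.10) or any 1 PND1 exposed library, and without 9 of the 14 libraries in all, controls included, since they share the estimate of the spread. Pdia6 (0.35 ± 0.24) and Canx (-0.09 ± 0.18) were not called. Canx was called as lower under quantile normalisation (-0.57, adjusted p = 0.0094) and under scaling by total reads (-0.42, adjusted p = 0.039).

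The sterol element TCACNCCAC, searched in the same way, was found in 1 of 18 cholesterol genes with a window (5.56%) and in 1.46% of genes tested with one. The match was in Hmgcs1, whose stretch is shown because it holds the only match among the 18. No match says only that these letters are not in the window.
Hmgcs1 (chr13:119690184-119690252, plus strand): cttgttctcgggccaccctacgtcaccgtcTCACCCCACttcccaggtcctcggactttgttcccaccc

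**Figure D5:**
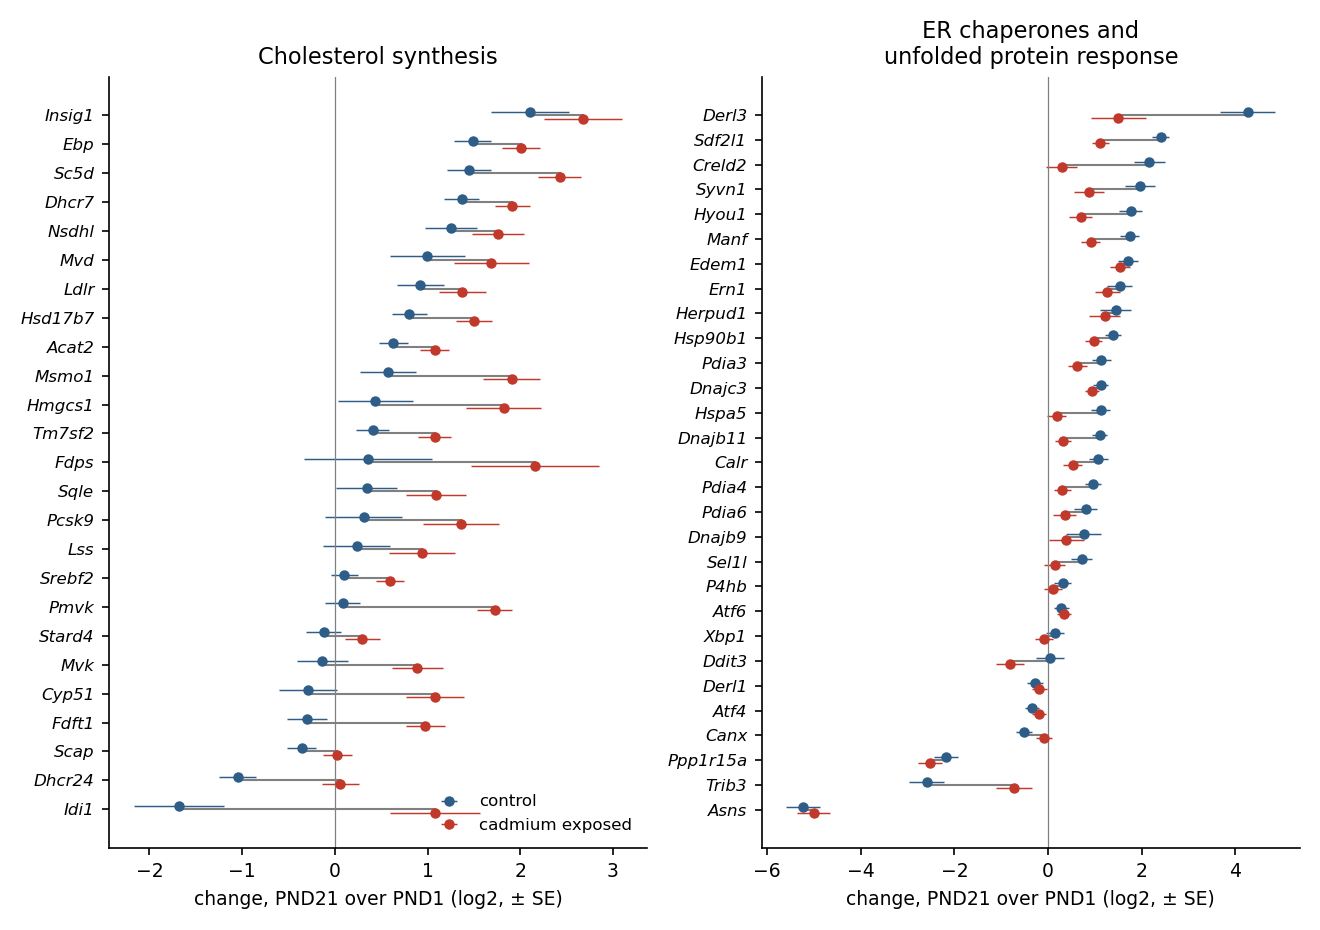
Change from PND1 to PND21 (log2, points with SE bars) of genes of the cholesterol synthesis list (left) and of each gene of the list of ER chaperones and the unfolded protein response (right), in control (blue) and exposed (red) livers, sorted by the control change. Each red point on the left lies to the right of its blue partner, and 23 of 29 on the right lie to the left.

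Differences of cytosolic heat shock genes were mostly below 0 as well. Of 21 genes 11 rose and 1 fell (median 0.56, controls 0.69), with the difference below 0 in 16 (median -0.36) and 0 called. Hspa1b, an inducible HSP70, reached 124, 150 and 156 normalised counts in exposed and 454, 344 and 497 in control weanlings, without overlap (difference -1.74 ± 0.69, adjusted p = 0.48). Dnajb1, an HSP40 partner of it, fell by 0.53 ± 0.16 in exposed livers, with a control change of 0.34 that was not called. The exposed call of Dnajb1 was lost without PND21 exposed replicate 1 (adjusted p = 0.051).

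Male-biased liver genes rose less, by value, in exposed than in control livers. Among 32 genes that are male-biased in adult mouse liver, many of them driven by pulses of growth hormone, 21 rose and 4 fell in exposed females and 24 rose and 2 fell in controls, with medians of 1.77 and 2.42. The difference was below 0 in 26 of 32 (median -0.94), and 0 were called. At an unadjusted p under 0.05, 9 were lower and 1 higher, beside 9.07% over all genes tested. At PND21 29 of the 32 were lower in exposed than in control livers. Without exposed replicate 3 the difference was below 0 in 27 (median -0.95). Mup3, a major urinary protein gene, was at 33.9, 33.1, 35.1 and 53.5 in exposed newborns and 17089, 13437 and 24665 in weanlings, a rise of 8.83 ± 0.32. Control weanlings were at 83614, 46914 and 133540, without overlap (difference -2.02 ± 0.46, adjusted p = 0.28). Cyp7b1, an oxysterol hydroxylase, reached 478, 409 and 479 in exposed and 1196, 475 and 1296 in control weanlings, where 1 control, replicate 2, lay within the exposed range (difference -1.83 ± 0.41, adjusted p = 0.28). Without that library the differences of Cyp7b1 (-2.29, adjusted p = 0.0078), Creld2 (-2.34, adjusted p = 0.019), Mup3 (-2.41, adjusted p = 0.045) and Pmvk (1.71, adjusted p = 0.048) were called. C6, of the complement attack complex, reached 443, 354 and 384 against 1082, 776 and 1202 (difference -1.22 ± 0.30, adjusted p = 0.28). C9, of the same complex, rose by 5.51 ± 0.34 in exposed livers and by 6.13 in controls. Among secreted plasma proteins outside the male-biased list, Serpina1c, an alpha-1 antitrypsin, reached 74075, 74448 and 82728 against 137060, 170930 and 195050 (difference -1.002 ± 0.26, adjusted p = 0.31).

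The growth hormone axis itself was mixed. Of 23 genes 7 rose and 8 fell in exposed and 10 rose and 7 fell in control livers. Over all genes tested 22.9% rose and 24% fell in exposed livers. At an unadjusted p under 0.05, 6 differences were lower and 1 higher, beside 9.07% over all genes tested. The median difference of the list, -0.13, turned above 0 under scaling by total reads. Ghr, the growth hormone receptor, rose by 1.85 ± 0.21 (controls 2.58), and Igf1, its main product in liver, by 3.45 ± 0.26 (controls 4.17). Igf1 reached 35023, 36393 and 41111 in exposed and 65148, 58049 and 73906 in control weanlings, without overlap. Igfals, which stabilises IGF-1 in blood, rose by 1.96 ± 0.29 against 3.05, and Socs2, an inhibitor of the growth hormone receptor, fell by 2.13 ± 0.26 against 0.85 (differences -1.09 ± 0.41 and -1.28 ± 0.37). Igfals and Socs2 were chosen after their values were seen. Prlr, the prolactin receptor, changed by 0.32 ± 0.25 in exposed livers, which was not called, and rose by 1.64 in controls. Bcl6, a repressor that growth hormone pulses lower, rose by 3.09 ± 0.19 in exposed and by 2.54 in control livers. Among female-biased genes, of which 15 of 33 rose and 3 fell in exposed livers, Hamp2, a hepcidin, was at 9.48, 17.8 and 2406 in exposed and 17188, 13846 and 5799 in control weanlings. Both groups of newborns were between 2.87 and 12.2. Only exposed replicate 3 was above the newborn range by more than a few counts, and the difference was -7.48 ± 2.004 (adjusted p = 0.34) with it and -9.95 (adjusted p = 1.9e-05) without it.

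Fatty acid oxidation genes rose in 8 and fell in 5 of 43 in exposed livers, and rose in 8 and fell in 16 in controls. Over all genes tested 22.9% rose and 24% fell in exposed livers, and 27.7% rose and 28.3% fell in controls. The exposed median of 0.10 turned below 0 under quantile normalisation and scaling by total reads. The difference of maturation, in contrast, was above 0 in 38 of 43 genes (median 0.36). An unadjusted p under 0.05 was reached by 9, beside 9.07% over all genes tested, and 0 were called. Without exposed replicate 3 the difference was above 0 in 33 of the 43 (median 0.26). At an unadjusted p under 0.05, 3 were then higher and 1 lower, beside 563 higher and 444 lower of the 14259 genes tested. At PND1 40 of the 43 were lower in exposed than in control livers (median -0.35), and at PND21 17 were lower and 26 higher (median 0.08). Pdk4, a kinase that spares glucose during fasting, was at 227, 194 and 664 in exposed and 86.1, 125 and 177 in control weanlings (difference 2.01 ± 0.59, adjusted p = 0.35). Acot1, an acyl-CoA thioesterase, overlapped between the weanling groups (518, 203 and 571 against 153, 197 and 292).

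Markers of other liver cell types had calls in both directions, beside 22.9% higher and 24% lower over all genes tested in exposed livers. Of 39 stellate cell and matrix genes 7 rose and 4 fell in exposed livers, and 4 rose and 13 fell in controls. The difference was above 0 in 36 genes (median 0.83), and in 32 (median 0.59) without exposed replicate 3. With all libraries 8 had an unadjusted p under 0.05, beside 9.07% over all genes tested, and 0 were called. Without exposed replicate 3, 3 were higher and 0 lower at that p, beside 563 higher and 444 lower of the 14259 genes tested. Col5a2, a fibrillar collagen chain, was at 340, 326 and 549 in exposed and 165, 152 and 262 in control weanlings, without overlap (difference 1.27 ± 0.41, adjusted p = 0.39). Its exposed change of -0.57 ± 0.29 was not called, but was without exposed replicate 3 (-0.81, adjusted p = 0.042). Timp2, a metalloproteinase inhibitor, was at 574, 493 and 857 against 247, 435 and 373. Dcn (decorin) and Ecm1 rose by 1.39 ± 0.17 and 1.83 ± 0.21 in exposed livers and by 1.38 and 2.06 in controls. Of 18 Kupffer cell genes 2 rose and 8 fell, with Marco, a scavenger receptor, at -2.82 ± 0.40 and Spic, a factor of iron-recycling macrophages, at -1.43 ± 0.23. Of 23 sinusoidal endothelial genes 7 rose and 1 fell: the lectin gene Clec4g rose by 1.04 ± 0.19 and Lyve1, a hyaluronan receptor, fell by 1.43 ± 0.27. Of 12 T and NK cell genes 5 rose and 3 fell, with the chemokine gene Ccl5 at 3.19 ± 0.63 and Cd3d at -1.52 ± 0.47, a call lost without PND21 exposed replicate 1 (adjusted p = 0.080). Cholangiocyte genes fell in 5 of 17 and mesothelial genes in 1 of 9, with none rising.

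Of the 15 exocrine pancreas genes searched, 2 were among the genes tested and both were higher in weanlings. Cela1, an elastase, was at 851, 1228 and 2096 normalised counts in exposed and 683, 613 and 967 in control weanlings, and Pnliprp1, a lipase-related protein, at 210, 433 and 644 against 68.6, 63.8 and 240. Their summed share of reads was at most 0.00923% in exposed and 0.00356% in control weanlings, and its part in the other results was not tested.

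The calls of the metallothioneins depended on the scaling. Mt1, the main metallothionein gene, which binds cadmium and zinc, was at 37295, 29999, 24061 and 44586 in exposed newborns and 16168, 37096 and 14941 in weanlings, which overlapped (-0.67 ± 0.41, adjusted p = 0.19). Mt2 changed by -0.84 ± 0.51 (adjusted p = 0.19). Under quantile normalisation both were called as lower, Mt1 at -1.14 (adjusted p = 0.033) and Mt2 at -1.37 (adjusted p = 0.027). Mt1 was also called without PND21 exposed replicate 2, the highest of the 3 (-1.09, adjusted p = 0.047). In controls Mt1 fell by 1.33 and Mt2 fell by 1.496, with differences of 0.66 each (adjusted p = 0.74 and 0.79). Over all genes tested, 22.9% were called as higher and 24% as lower in exposed livers, the shares to set beside the counts that follow. Of 21 metallothionein and metal transporter genes 7 rose and 5 fell. The zinc importer genes Slc39a4 and Slc39a5 rose by 1.05 ± 0.18 and fell by 2.42 ± 0.33, close to the control values of 1.13 and -2.96. Among 24 iron genes 5 rose and 6 fell, with Tfrc, the transferrin receptor, at -2.57 ± 0.31 and Hmox1, heme oxygenase, at -1.72 ± 0.21. Of 29 NRF2 targets and redox genes 9 rose and 3 fell, of 20 clock genes 11 rose and 1 fell (Cry1 1.03 ± 0.26, Nr1d1 2.80 ± 0.55), of 43 interferon-stimulated genes 10 rose and 6 fell, of 21 immediate early genes 5 rose and 4 fell, of 28 retinoid genes 16 rose and 2 fell, and of 25 genes of glucose handling 15 rose and 4 fell. None of the 9 mitochondrially encoded genes was called in exposed livers.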

How the data were processed

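Liver RNA was sequenced as single-end 125 bp reads on a HiSeq2500, per the labels. Per the submitters' processing notes the tools were FastQC, STAR and featureCounts and the build mm10, and no source used here gives their versions. The deposited log2 values are log2(count / size factor + 1), and the authors scaled both ages together. Whole reads came back within 0.1 for 100% of values of low read number, and higher values were not checked. The deposited signal column is the authors' mean of normalised counts over the 14 libraries, whose lowest value, 10.5, marks the genes of least precision. limma 3.58.1 (R 4.3.3; trend, robust) was fitted to the 4 groups, with contrasts for each arm, their difference and their mean, two-sided, Benjamini-Hochberg over 14259 genes. A filter of at least 10 normalised counts in at least 3 libraries removed no gene. The fit was tested on simulated data. Named genes were 9 reference genes (such as Afp, Alb and Mt1), the 12 highest and 12 lowest exposed changes, the 24 lowest p of the difference, the genes called in opposite directions, and per list up to 3 of lowest p in the exposed contrast and 2 in the difference; other choices are stated beside them. The members and lists were chosen with earlier results of these data known. Genes named by a low p of the difference tend to have weanling groups without overlap, so that trait is not separate support. Its share over all genes was not counted. Positions are from GENCODE vM21 (mm10) and promoters from RefSeq (GRCm38.p6). Alternatives covered pseudocount, filter, scaling, spread model, block, covariate, threshold and each library left out. Some genes that the rule names are not reported here.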

Additional observations from a re-analysis of the deposited data

Results flagged for a closer look

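In groups of 4 libraries, a normalised count was looked at again where its gap to the nearest other library exceeded 0.829 of the group's range. Gap and range were taken on the log2(normalised count + 1) scale. Of 242 such groups checked 15 met this, and chance gives about 1 in 20. In PND1 exposed replicate 3 these were Pmvk at 745.2, Itga2b at 3988, Dnajb1 at 560.6 and Hmox1 at 893.9. In PND1 exposed replicate 4 they were Mup3 at 53.52, Derl3 at 7.257, Me1 at 290.3 and Ccl5 at 0.9071. In PND1 control replicate 1 they were Scd2 at 754.7, Prodh at 432.6, Igf1 at 3393 and Mest at 1950. The others were Pdk4 at 1029 in PND1 control replicate 2, Nr1d1 at 61.17 in PND1 control replicate 3 and Pax5 at 462.9 in PND1 control replicate 4. The difference between the exposed and control changes was called by limma for Pctp (2.62) and Adcy1 (2.965), with 3 libraries per arm at PND21.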

How the results depend on the processing

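The share of age-dependent genes with a smaller change in exposed livers kept its direction when each library was left out (61.8 to 69.2%), as did the mean axis position of exposed weanlings (79.4 to 88.4%), and that of exposed newborns was -1.07 to 1.27%. Left-out counts of called genes were 5666 to 6797 (exposed), 7041 to 8257 (control), 8746 to 9238 (mean of the arms) and 2 to 12 (difference; 12 without PND21 control replicate 2, 7 and 6 without PND21 exposed replicates 2 and 3, 4 without PND1 control replicate 1). The difference gave 4 calls under scaling by total reads, 4 with no intensity trend and no robust estimate, 41 with library quality weights (21 higher, 20 lower), 1 at an adjusted p under 0.01, and 0 under quantile normalisation and with limma voom. At 2-fold or more the counts were 3770 (exposed), 4642 (control) and 4243 (mean of the arms). With 3 weanlings per arm, small differences cannot be resolved. The cause of each change was not tested. With quality weights, differences were called also for Pmvk (1.77), Scd2 (1.27), Sdf2l1 (-1.50), Creld2 (-1.93), Mup3 (-2.59), Hamp2 (-9.07), Cyp7b1 (-2.22), C6 (-1.57), Serpina1c (-1.20), Alas2 (-1.82) and Bcl2l15 (-3.96), and exposed changes for Prlr (0.49), Col5a2 (-0.78) and Cyp7a1 (3.64). Pmvk was also called in the difference under total reads (1.82), with the erythroid covariate (1.60) and without PND1 exposed replicate 3 (1.85), Nr0b2 with that covariate (2.22), and Scd2 without PND1 control replicate 1 (1.64). The exposed change of Hamp2 was called under quantile normalisation (3.75), with the tag block (3.55) and without PND21 exposed replicates 1 (4.61) or 2 (4.19), that of Col5a2 under total reads (-0.90), and that of Timp2 in a fit of the exposed arm alone (0.64). The exposed change of Cry1 was not called under total reads (0.70).

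With the mean of the erythroid genes as a covariate, which differs between the ages in each arm, the counts were 7 (exposed), 7 (control), 4 (difference) and 2 (mean of the arms). The exposed change then turned sign for Adcy1 (0.85), Pmvk (-0.35), Nr0b2 (-3.90), Creld2 (-1.43), Fdft1 (-1.45), C6 (-0.36), BC017158 (0.15), Bcl2l15 (1.08), Derl3 (-3.54), Syvn1 (-0.97), Acot1 (-0.44), Dnajb1 (0.98), Hbb-bs (1.13), Nusap1 (1.38), E2f2 (0.34), Ncapd2 (0.64), Cyp7a1 (-0.36), Cyp27a1 (-0.68), Mug2 (-2.54), Mfsd2a (-1.28), Zhx2 (-0.71), Cebpb (-0.27), Mt1 (1.34), Mt2 (1.27), Dhcr7 (-0.26), Rps3 (0.85), Rplp0 (0.49), Marco (0.98), Ecm1 (-0.094), Slc39a4 (-0.19), Tfrc (0.58), Hmox1 (0.46), Cd3d (2.70), Canx (1.69) and Hmgcs1 (-1.60).

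Other sign changes of the exposed change were Acot1 (-0.42) with quality weights; Hspa5 (-0.33), Pdk4 (0.086), Alb (-0.057), Calr (-0.054) and Pdia6 (-0.042) under quantile normalisation; and Creld2 (-0.041), Prlr (-0.014), Hspa5 (-0.15) and Acot1 (-0.16) under total reads. Left-out libraries turned Pdk4 (0.0034 without PND1 exposed replicate 3, 0.13 and 0.24 without PND21 exposed replicates 1 and 2), Creld2 (-0.020), Acot1 (-0.027) and Canx (0.046) without PND21 exposed replicate 1, and Acot1 (-0.10) without PND21 exposed replicate 3. Over all left-out libraries these 4 genes ranged from -0.64 to 0.24 (Pdk4), -0.020 to 0.52 (Creld2), -0.10 to 0.65 (Acot1) and -0.27 to 0.046 (Canx).

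The replicate numbers did not pair the libraries: correlations of same-numbered deviations were 0.011, -0.054 and 0.14 in controls and 0.011, -0.027 and 0.0072 in exposed animals. With the replicate block the counts were 5507 (exposed), 6915 (control), 8331 (mean of the arms) and 0 (difference). With the leading number of the sample tag as a random block (correlation 0.318) they were 7408 (exposed), 8369 (control), 9588 (mean of the arms) and 2 (difference), and Derl3 was not called (adjusted p = 0.052).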
